A study of Mus musculus with 12 samples.

Results

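IL-1α is a cytokine that makes chondrocytes, the cells of cartilage, switch on inflammatory genes and lose aggrecan, the proteoglycan that lets cartilage bear weight. It binds the receptor IL-1R1 with its accessory protein, and the adaptor MyD88 and the IRAK kinases carry the signal to the transcription factor NF-κB and to the MAP kinases. Cartilage answers with chemokines, nitric oxide, prostaglandins and matrix proteinases, and NF-κB also switches on its own inhibitors.

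The arrays described here are the 4 of cartilage treated with IL-1α and the 4 of untreated cartilage, 8 of the 12 arrays of the series, chosen by their labelled treatment. All came from 21-day-old TS-4/5∆cat mice, in which the exons for the catalytic domains of ADAMTS-4 and ADAMTS-5, the main aggrecanases of joint disease, are deleted in frame. The untreated controls carry the same deletions, so no array here shows cartilage with active ADAMTS-4 or ADAMTS-5. Femoral heads, 4 to a well, were kept 24 h in medium with 10% fetal bovine serum per the labels and then cultured for 3 days without an agent or with IL-1α at 10 ng/mL, whereas the methods of the study describe serum-free medium and recombinant human IL-1. The remaining 4 arrays, of explants given retinoic acid at 10 µM for 3 days, shared the normalization and the model and were set against IL-1α only where named. Each treatment had 2 arrays of the mouse line Donut, labelled batch 1, and 2 of the line Gertrude, labelled batch 2, so line and batch cannot be told apart. The labels give 4 arrays per treatment, the labels' treatment text says triplicate and the study's methods give 3 unpooled mice per treatment, so p-values measure the spread between these arrays. RNA was taken from whole explants, in which fewer cells of a type and less RNA per cell cannot be told apart.

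A level below is a log2 intensity after background correction and quantile normalization of all 12 arrays together, and a difference is IL-1α minus untreated on that log2 scale, from a limma model with treatment and a factor for batch and replicate. Of 46632 probes, 18200 were detected on at least 4 arrays, and each of the 13768 genes they measure was represented by its brightest kept probe. The 8 arrays detected 13786 to 14965 probes in batch 1 and 16732 to 19485 in batch 2, and the highest of these counts was from an untreated array. Across kept probes, replicates within a batch correlated at 0.983 to 0.995. Between batches the correlation of like-treated arrays was 0.868 to 0.902, below the 0.946 to 0.968 of untreated and IL-1α arrays within a batch. All values stop at a ceiling of 14.24, the highest normalized value on any array, so a gene near it cannot show its full rise.

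NF-κB binds short DNA elements near the genes it controls, and 3 of the 15 genes with the largest rises held such a letter pattern just upstream of their start. The pattern searched was GGGNNTTTCC, where N is any base, on both strands of the 250 bases before each RefSeq start in build GRCm38.p6. It occurred upstream of 1.65% of the 27025 RefSeq genes with a window. Among the 15 largest rises, 12 genes had a window and 3 of them, Cxcl1, Cxcl2 and Steap4, held the pattern. Of the 15 largest falls, 14 had a window and 0 held it. Among all genes measured it was found in 159 of 8664 with a window (1.84%), among genes raised over 2-fold in 7 of 213 (3.29%) and among genes lowered over 2-fold in 5 of 296 (1.69%), which is a description and not a test. The neutrophil-attracting chemokine genes Cxcl1 and Cxcl2 are shown because each held the pattern at 2 places close together, and because both stand among the largest rises. Capitals mark the matches, some of them on the strand opposite to the one printed, and every run ends at the last base before the start.
Cxcl1 (GRCm38.p6, chr5:90891136-90891244, plus strand): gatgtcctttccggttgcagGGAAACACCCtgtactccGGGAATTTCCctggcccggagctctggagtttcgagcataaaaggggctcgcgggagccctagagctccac
Cxcl2 (GRCm38.p6, chr5:90903782-90903898, plus strand): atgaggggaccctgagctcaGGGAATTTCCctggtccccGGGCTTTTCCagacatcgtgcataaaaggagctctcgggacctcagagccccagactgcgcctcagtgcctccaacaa
A match is only a run of letters and says nothing of binding in these explants. Nos2, Ccl5, Ccl2 and Orm1 had no window in the table used.

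The 5 genes taken as markers of IL-1 treatment were all higher with IL-1α, and 4 of them passed the test. Nos2, the inducible nitric oxide synthase, had levels of 4.75 and 5.02 in batch 1 and 4.87 and 4.80 in batch 2 without treatment, where it was not well above background on any array. With IL-1α its levels were 8.89, 8.89, 8.94 and 9.02. This was a rise of at least 14.1-fold, counted against the lowest detected signal of each untreated array (fitted difference 4.07 ± 0.11 SE, adjusted p = 1.21e-10 by limma with the Benjamini-Hochberg method, as for every adjusted p below). Cxcl1 rose from 10.77 and 10.98 in batch 1 and 10.14 and 9.70 in batch 2 to 13.75 to 14.04, close to the ceiling (3.47 ± 0.32 SE, adjusted p = 6.6e-06). Ccl2, a monocyte-attracting chemokine, had levels of 5.76, 5.87, 7.61 and 7.48 without treatment and 7.29, 7.21, 8.84 and 9.14 with IL-1α. Its groups overlapped across the batches and were separate within each, with a difference of 1.44 in both (adjusted p = 3.16e-06). Lcn2, which encodes the iron-trapping protein lipocalin 2, was already at 12.73 to 13.16 without treatment and reached 13.81 to 14.10 (1.04 ± 0.31 SE, adjusted p = 0.0217). The call did not survive leaving out 1 array when that array was untreated from batch 1, or treated from batch 2. Saa3, a serum amyloid A gene, had levels of 13.66, 13.66, 12.95 and 12.53 without treatment and 14.04, 14.12, 13.89 and 13.89 with IL-1α, so that the groups did not overlap, but its difference of 0.79 did not pass the test (adjusted p = 0.373). Fitted on the 8 untreated and IL-1α arrays only, without those of retinoic acid, the difference in Saa3 was 0.82 and was called (adjusted p = 0.0071). Among all genes, 7.31% had every IL-1α array above every untreated array, and for any such gene the two-sided exact permutation test over the 8 arrays gives its smallest possible p of 0.0286.

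Adamts4 was measured at 8.66, 8.72, 8.85 and 9.29 without treatment and 8.88, 8.81, 8.60 and 8.75 with IL-1α, and these groups overlapped (difference -0.12 ± 0.17 SE, adjusted p = 0.631). Adamts5 was detected on 0 of 4 untreated arrays and 1 of 4 IL-1α arrays, at 4.81 to 5.08 on all 8, and did not pass the detection filter. The array annotation used here does not place these probes relative to the deleted exons, so they do not check the genotype.

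**Figure D1:**
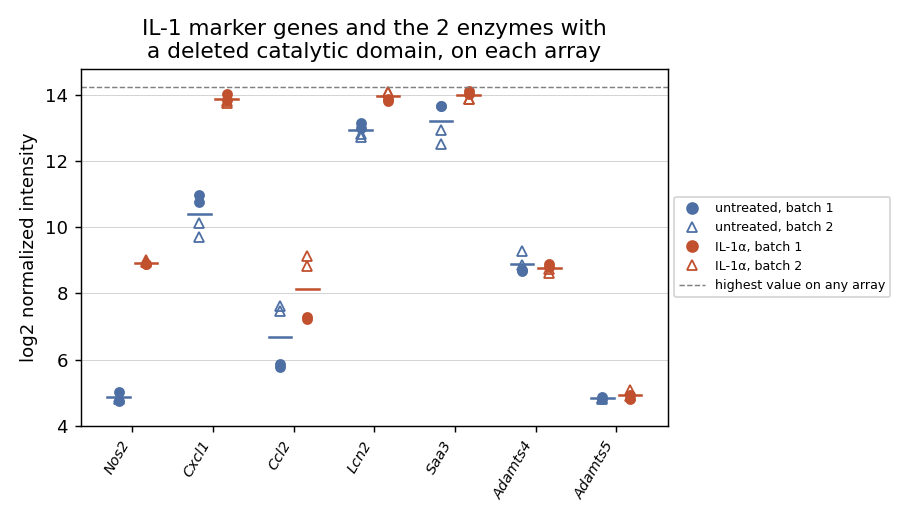
Log2 normalized intensity (vertical axis) of the 5 IL-1 marker genes and of Adamts4 and Adamts5 on each of the 8 arrays, with circles for batch 1, triangles for batch 2 and short lines for the mean of 4 arrays. Nos2 moves from about background to 8.89 to 9.02, Lcn2 and Saa3 start near the dashed ceiling of 14.24, and Adamts4 and Adamts5 overlap between the treatments.

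Over all genes measured, 2120 (15.4%) were higher and 2082 (15.1%) lower with IL-1α at an adjusted p under 0.05. Of these 4202 genes, 3972 had the same sign in all 4 pairs of arrays of the same batch and replicate number. Choosing called genes favours this count, and the replicate numbers are not shown to pair the arrays. By probes, 2767 were higher and 2567 lower among 5334 called. A call with a fitted change above 2-fold was made for 312 genes (2.27%) in the upward direction and 438 (3.18%) in the downward direction. The median difference over all genes was 0.01, so list medians below can be read against about 0. Counts of called members in each list and marker set below can be read against the shares of 15.4% higher and 15.1% lower. With treatment as the only term, without batch or replicate, 1327 probes were called.

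The largest rises were in secreted acute-phase proteins, chemokines and signalling molecules. Saa1, a serum amyloid A gene expressed in inflammation, rose from 7.02, 7.47, 6.91 and 6.47 to 13.62, 13.65, 13.65 and 13.56 (6.65 ± 0.45 SE, 101-fold, adjusted p = 4.34e-07). Saa2, its close paralog, rose from 6.53, 6.48, 5.56 and 5.08 to a mean of 12.32 ± 0.23 (SD, n = 4), a difference of 6.40 ± 0.31 SE. Probes for such similar genes may share signal, so the 2 rises are not independent. Ccl5, a chemokine for T cells and monocytes, was at 4.73 to 5.26 without treatment, detected on 2 of the 4 arrays, and reached 9.93 and 9.90 in batch 1 and 11.78 and 11.96 in batch 2 (5.86 ± 0.31 SE, adjusted p = 5.93e-08).

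Vnn3, a pantetheinase gene, was not well above background without treatment and stood at 10.25, 10.22, 10.02 and 9.92 with IL-1α, a rise of at least 31.6-fold and nearly equal in both batches. Calca, which encodes calcitonin and the neuropeptide CGRP, was likewise not well above background without treatment and reached 9.91 and 9.97 in batch 1 and 8.28 and 8.65 in batch 2, a rise of at least 17-fold. Gdf15, a stress-induced cytokine of the TGF-β family, rose from 7.05 to 7.61 to 11.93 and 11.83 in batch 1 and 10.29 and 10.50 in batch 2 (3.80 ± 0.26 SE). The other genes of the 15 largest rises outside the lists were Gdnf, a neurotrophic factor (3.36), Il19, a cytokine of the IL-10 family (3.31), and Rgs16, a regulator of G-protein signalling (3.22). In all 15 of these genes the IL-1α arrays lay above the untreated ones, which the choice of the largest rises favours.

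**Figure D2:**
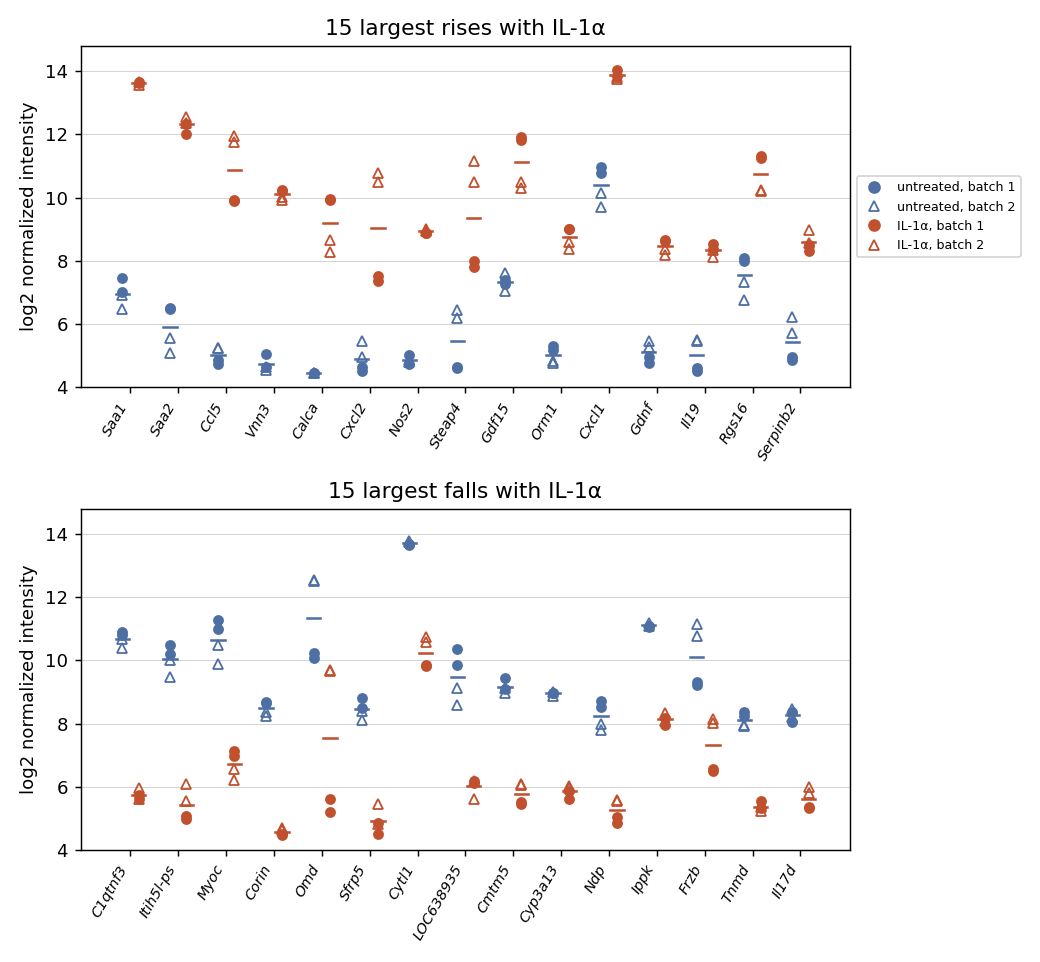
Log2 normalized intensity (vertical axis) on each of the 8 arrays for the 15 genes with the largest rises (upper panel) and the 15 with the largest falls (lower panel), with circles for batch 1, triangles for batch 2 and short lines for means of 4 arrays. The groups are separate in all 30 genes, and Cxcl2, Steap4 and Omd show gaps between the batches.

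Chemokines rose together in most but not all cases. Of the 16 CXC and CX3C genes listed, 10 passed the detection filter, of which 6 rose and 2 fell (median difference 1.37). The 2 that fell were Cxcl12 and the platelet chemokine Pf4, and Pf4 lost its call, leaving 1, when any untreated array or either batch 2 IL-1α array was left out. Cxcl2 rose from 4.52 and 4.64 in batch 1 and 5.47 and 4.96 in batch 2 to 7.37 and 7.54 in batch 1 and 10.50 and 10.79 in batch 2 (4.15 ± 0.44 SE, adjusted p = 2.29e-05). Cx3cl1, which encodes fractalkine, a chemokine tethered to the cell surface, rose from 7.39 to 7.62 to 10.21 to 10.34 (2.80 ± 0.12 SE, adjusted p = 1.05e-08). Cxcl9 rose by at least 4.5-fold from not well above background, and Cxcl14 and Cxcl16 rose by 1.75 and 0.99. Cxcl12, which holds blood-forming cells in the marrow, went the other way, from 10.08, 10.28, 10.60 and 10.64 to 9.40, 9.37, 8.89 and 8.86 (-1.27 ± 0.24 SE, adjusted p = 0.00183). Of 21 CC chemokine genes listed, 11 passed the filter, and 6 rose and 0 fell (median 0.42), with 1 called lower without the batch 1 IL-1α replicate 1 array. Ccl3 rose from 5.11 to 6.16 to 7.85 to 8.58 (2.55 ± 0.26 SE) and Ccl7 from 9.31 to 9.87 to 11.31 to 11.88 (1.94 ± 0.16 SE).

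Acute-phase and antimicrobial proteins were split. Of 31 genes listed, 25 passed the filter, 10 rose (40%, against 15.4% of all genes) and 4 fell (16%, near 15.1%). The median difference was 0.56. Besides Saa1 and Saa2, Orm1, which encodes the acid glycoprotein orosomucoid, rose from 4.77 to 5.31 to 8.39 to 9.01 (3.72 ± 0.13 SE). Slpi, an inhibitor of neutrophil elastase, rose by 2.54, and Hp, which encodes haptoglobin, by 1.93. Itih3, whose product is bound to hyaluronan, fell from 5.93 to 6.70 to background on all 4 arrays, by at least 1.99-fold, and Serpina1b, an antitrypsin gene, fell from 9.16, 9.15, 10.31 and 9.63 to 7.60, 7.34, 8.55 and 8.74 (-1.51 ± 0.16 SE). Lyz2, which encodes the lysozyme of macrophages and granulocytes, fell from 11.84 to 12.16 to 10.17 to 10.97 (-1.47 ± 0.19 SE).

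Genes of the NF-κB system moved as a block, with 20 of 24 measured genes (83.3%) higher and 0 lower, of 28 listed, against 15.4% of all genes (median difference 0.88). Those with the largest rises were Nfkbie, Nfkbiz and Map3k8. Nfkbie, which encodes the inhibitor IκBε, rose from 5.85, 6.63, 5.74 and 5.60 to 8.36, 8.34, 7.26 and 7.21 (1.84 ± 0.15 SE). Nfkbiz, which encodes the nuclear cofactor IκBζ, rose from 8.54 to 8.95 to 10.28 to 10.83 (1.72 ± 0.17 SE). Map3k8, a kinase that feeds the MAP kinases, rose from 7.46 to 7.85 to 9.20 to 9.48 (1.71 ± 0.11 SE). The subunits themselves moved less, with Relb at 1.45, Nfkb1 at 0.51 and Rela at 0.46, all called (Nfkb1 on 1 of 2 probes), and Nfkb2 at 0.33 (adjusted p above 0.05). Feedback inhibitors were among the risers too, Tnip1 by 1.34 (2 of 3 probes called), Nfkbia by 0.93 and Tnfaip3 by 0.84. Across the arrays left out in turn, 19 to 20 genes of this list were called higher, with 1 called lower without the batch 2 untreated replicate 1 array, and 12 were higher with treatment as the only term.

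Part of the IL-1 system was also raised. Of 29 genes listed, 22 passed the filter, 9 rose (40.9%, against 15.4% of all genes), 0 fell and 13 were not called (median 0.37). The count that rose was 6 to 10 with an array left out and 4 with treatment as the only term. Without the batch 2 IL-1α replicate 2 array, 1 gene was called lower. Among ligands, Il1b rose from 5.34, 5.72, 4.92 and 4.79 to 8.63, 8.64, 7.09 and 7.18 (2.69 ± 0.27 SE, adjusted p = 1.3e-05), and Il1a, not well above background on any untreated array, rose to 6.00 to 6.53, at least 2.32-fold. Because recombinant protein carries no RNA, these levels are of the endogenous transcripts. Among inhibitors, Il1rn, the receptor antagonist, rose by 1.29 and Irak3, a kinase-like protein that damps the signal, by 1.30. Among receptors, Il1r2, the decoy, rose by at least 1.11-fold from not well above background and Il1r1, the signalling receptor, by 0.50. Irak2, a signalling kinase, rose from 6.67 to 7.18 to 8.29 to 8.77 (1.60 ± 0.11 SE, adjusted p = 4.89e-07), while Myd88 (0.35) and Traf6 (0.38) did not pass the test.

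Cytokines of the IL-6 family and their feedback followed in part, with 10 of 24 measured genes higher and 2 lower of 31 listed (median 0.20). Lif, which encodes leukaemia inhibitory factor, rose from 5.35, 5.39, 5.27 and 5.31 to 8.18, 8.25, 8.04 and 8.27 (2.86 ± 0.11 SE, adjusted p = 4.12e-09). Csf3, a growth factor for granulocytes, was not well above background without treatment and reached 7.55 and 7.60 in batch 1 and 6.07 and 5.76 in batch 2, at least 3.08-fold. Socs3, the feedback inhibitor of STAT3, rose from 7.78, 7.88, 8.93 and 8.71 to 9.68, 9.65, 10.24 and 9.93 (1.55 ± 0.14 SE). Jak1 fell to not well above background, by at least 1.58-fold, on the brightest of its 3 probes while the other 2 were not called, and Tnfrsf11b, which encodes osteoprotegerin, fell from 10.78 to 11.75 to 10.14 to 10.72 (-0.79 ± 0.14 SE). Il6 and Tnf did not pass the detection filter.

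For nitric oxide, Nos2 was joined by genes that supply its substrate and cofactor, as 4 of 13 measured genes rose and 1 fell, of 16 listed (median 0.14), and 2 fell without batch 1 IL-1α replicate 1, batch 2 IL-1α replicate 2 or batch 2 untreated replicate 2. Slc7a2, an arginine transporter, rose from 5.11, 5.87, 6.69 and 6.86 to 9.24, 9.35, 9.15 and 8.77 (2.99 ± 0.27 SE). Gch1, which makes the cofactor tetrahydrobiopterin, rose from 7.12 to 8.14 to 8.93 to 9.86 (1.83 ± 0.17 SE). Ddah2, which breaks down methylated arginines, fell by 0.74. For prostaglandins, 4 of 13 measured genes rose and 1 fell, of 25 listed (median 0.11), and 2 fell without replicate 1 of either treatment in batch 1. Ptges, the inducible prostaglandin E synthase, rose from 7.28, 7.52, 6.99 and 6.57 to 9.59, 9.57, 8.45 and 8.51 (1.94 ± 0.15 SE). Ptgis, the prostacyclin synthase, fell from 12.48, 12.53, 11.61 and 11.51 to 10.60, 10.58, 9.92 and 9.99 (-1.76 ± 0.12 SE). Ptgs2, which encodes cyclooxygenase 2, did not pass the detection filter.

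Oxidant defence genes also rose, with 15 of 28 measured genes higher (53.6%, against 15.4% of all genes) and 2 lower, of 34 listed (median 0.72). The 2 lower were Prdx4 and the glutathione peroxidase Gpx2, and 1 was called lower when any batch 1 array, or either untreated array of batch 2, was left out, where Gpx2 lost its call. Steap4, a metalloreductase, rose from 4.65 and 4.60 in batch 1 and 6.19 and 6.46 in batch 2 to 8.01 and 7.81 in batch 1 and 11.16 and 10.51 in batch 2 (3.90 ± 0.24 SE). Slc39a14, a zinc and iron importer, rose from 6.46 to 7.14 to 8.93 to 9.32 (2.23 ± 0.14 SE), and Slc7a11, the cystine transporter, from 6.82 to 7.69 to 9.18 to 9.66 (2.16 ± 0.20 SE). The superoxide dismutases Sod3 and Sod2 rose by 2.13 and 1.51, Hmox1, which encodes haem oxygenase 1, by 2.12, and the metallothionein Mt2 by 1.68. Sod1 did not pass the test (-0.07). Prdx4, a peroxiredoxin of the secretory pathway, fell from 12.50 to 12.73 to 11.37 to 11.79 (-1.0 ± 0.12 SE).

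Of 29 immediate-early and C/EBP transcription factors listed, 22 passed the filter, 14 rose and 1 fell (median 0.79), 3 days after the cytokine was added. Klf4 rose by 1.67 and Batf by 1.49. Junb, an AP-1 subunit, rose from 9.04, 9.08, 8.36 and 8.32 to 10.47, 10.49, 9.77 and 9.76 (1.42 ± 0.12 SE), with the same difference in each batch. Cebpb, a driver of acute-phase genes, rose by 1.39. Klf2 fell by 0.82, and Fos (0.05) and Myc (0.15) did not pass the test.

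Receptors that sense microbes moved in both directions, with 6 of 15 measured genes higher and 2 lower, of 22 listed. Their shares were 40% higher, against 15.4% of all genes, and 13.3% lower, near 15.1%. Cd14, a co-receptor for endotoxin, rose from 7.62 to 8.35 to 10.70 to 10.95 (2.73 ± 0.16 SE), Tlr2 rose by 1.25 and Tlr4 by 0.86 on the brighter of its 2 probes, the other not being called. Tlr5 fell from 5.61 to 6.95 to not well above background on all 4 arrays, by at least 2.06-fold. Complement genes moved in both directions, with 6 of 17 measured genes higher (35.3%) and 8 lower (47.1%), of 33 listed (median -0.44). Over all genes the shares were 15.4% and 15.1%. C3, the central component, rose from 10.16, 10.28, 9.16 and 9.51 to 12.17, 12.26, 12.97 and 12.91 (2.80 ± 0.43 SE), and Cfb, its partner in the alternative pathway, from 4.82, 4.99, 6.89 and 6.52 to 6.89, 7.22, 10.16 and 10.16 (2.80 ± 0.34 SE). C2, a component of the classical pathway, rose by 1.35, whereas Cfd, the protease that activates factor B, fell by 1.89. All 3 chains of C1q fell, C1qa by 1.49, C1qb by 1.82 and C1qc by 2.08, and C1qc went from 7.87 to 8.41 to 5.78 to 6.37. C1q is made chiefly by macrophages, and 3 of 7 measured macrophage markers fell and 2, Cd14 and Cd68, rose. The summed level was 12.12 to 12.34 without treatment and 12.57 to 13.16 with IL-1α. This higher sum rests mainly on Cd14, already counted above as a receptor gene that rose, and on Cd68. The part of macrophages in the fall of C1q was not tested.

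Of 55 interferon-stimulated and antigen-processing genes listed, 34 passed the filter (median 0.17). Of these, 8 rose (23.5%, against 15.4% of all genes) and 2 fell (5.88%, against 15.1%). The count that rose was 13 when the batch 2 IL-1α replicate 1 array was left out. The largest rise was Tap1, a peptide transporter, by 1.23. Among adhesion molecules, 2 of 10 measured genes rose (20%, against 15.4% of all genes) and 4 fell (40%, against 15.1%), of 17 listed. Icam1, a ligand for leukocyte integrins, rose from 10.23, 9.95, 10.07 and 9.86 to 13.07, 13.03, 13.03 and 12.67 (2.92 ± 0.21 SE), and the hyaluronan receptor Cd44 from 8.64 to 9.20 to 10.38 to 10.61 (1.65 ± 0.12 SE). The endothelial genes Icam2 and Mcam fell, by 0.91 and 0.99.

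**Figure D3:**
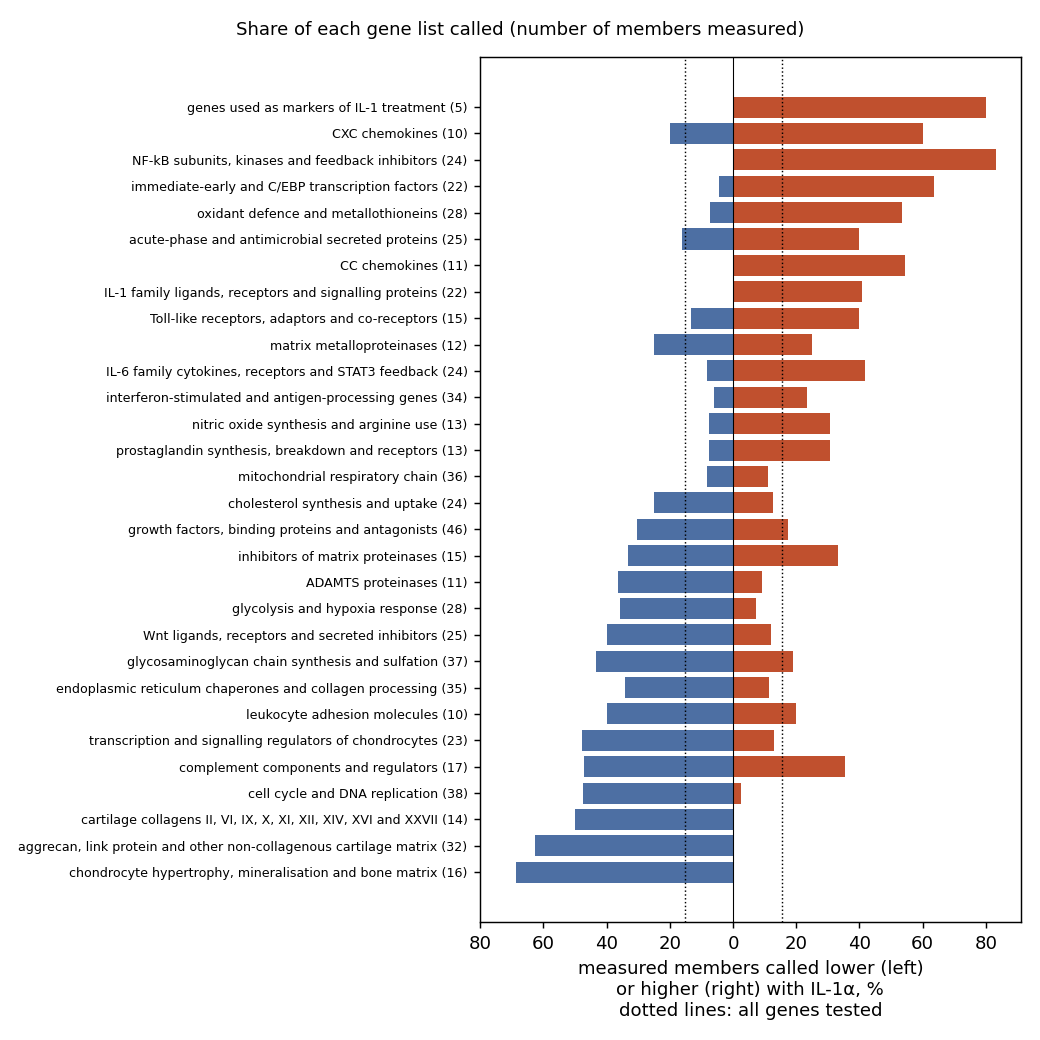
Share of measured members called higher (right bars) or lower (left bars) with IL-1α, in percent, for 30 gene lists ordered by median difference, with the number of members measured in brackets and dotted lines at the shares over all genes, 15.4% and 15.1%. NF-κB genes reach 83.3% higher, and the collagen, matrix and hypertrophy lists have no bar on the right.

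Matrix metalloproteinases, which cut collagens and proteoglycans, changed in both directions. Of 23 listed, 12 passed the filter, 3 rose and 3 fell (25% each, against 15.4% and 15.1% of all genes, median 0.23). Mmp10, a stromelysin, rose from 5.97, 6.15, 5.49 and 5.40 to 8.82, 8.88, 8.33 and 8.16 (2.79 ± 0.12 SE, adjusted p = 1.12e-08). Mmp12 rose by 0.78 and Mmp9 by 0.61. Mmp3 and Mmp13, stromelysin 1 and collagenase 3, were already bright without treatment, with means of 13.32 and 13.83, and their differences of 0.64 (adjusted p = 0.0851) and 0.05 (adjusted p = 0.774) lie under the ceiling of 14.24 and are not exact sizes. For each of Mmp3 and Mmp13 the dimmer of 2 probes was called higher. Mmp16 fell from 5.66 to 6.23 to not well above background, by at least 1.57-fold.

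Of 19 ADAMTS genes listed, 11 passed the filter (median -0.16). Of these, 1 rose (9.09%, against 15.4% of all genes) and 4 fell (36.4%, against 15.1%). The riser was Adamts7, which can cut COMP, by 0.77. The enzymes that trim procollagens fell, Adamts2 from 10.10, 10.24, 9.92 and 9.98 to 9.19, 9.27, 8.51 and 8.66 (-1.15 ± 0.13 SE) and Adamts3 from 6.14 to 7.17 to not well above background on all 4 arrays, by at least 2.66-fold on the brighter of 2 probes, the other not being called. Adamts9, an aggrecan-cleaving enzyme, was at a mean of 7.22 without treatment and 7.02 with IL-1α and did not pass the test (-0.20, adjusted p = 0.236). Its level with IL-1α was below that with retinoic acid by 4.12 on the log2 scale (adjusted p = 1.38e-10).

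Proteinase inhibitors were evenly divided, with 5 of 15 measured genes higher and 5 lower, of 21 listed, and 3 lower when either batch 1 array of replicate 2 or the batch 2 IL-1α replicate 2 array was left out. Serpinb2, an inhibitor of plasminogen activators, rose from 4.88, 4.96, 6.23 and 5.71 to 8.32, 8.49, 8.99 and 8.58 (3.15 ± 0.19 SE). Timp1 rose by 0.63, whereas Timp3, an inhibitor of aggrecanases, had 1 probe called lower, the brightest (-0.36, adjusted p = 0.0228), 1 called higher and 1 not called. Serpinf1, which encodes the anti-angiogenic factor PEDF, fell by 1.29 on the brighter of its 2 probes, the other not being called.

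The cartilage matrix fell. Of 40 non-collagenous matrix genes listed, 32 passed the filter, 20 were lower and 0 higher (62.5% lower against 15.1% of all genes, median -0.74). Acan, which encodes the aggrecan core protein, fell from 13.15, 13.30, 13.13 and 13.47 to 11.53, 11.34, 12.03 and 11.90 (-1.56, adjusted p = 1.02e-05). Matn1, a matrilin that links matrix fibrils, fell from 13.20, 13.35, 13.52 and 13.37 to 11.24, 11.16, 11.91 and 11.89 (-1.81, adjusted p = 1.17e-06). Hapln1, the link protein that fastens aggrecan to hyaluronan, was far lower in batch 1 and fell in both batches, from 8.39 and 8.27 to 7.18 and 7.02 and from 11.41 and 10.69 to 9.96 and 9.61. These groups overlapped across the batches only.

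The steepest falls in the list were Omd and Cytl1. Omd, which encodes the mineral-binding proteoglycan osteomodulin, fell from 10.07 and 10.23 to 5.62 and 5.22 in batch 1 and from 12.53 and 12.49 to 9.67 and 9.71 in batch 2 (-3.78 ± 0.32 SE). Cytl1, a cytokine-like gene of chondrocytes, fell from 13.66, 13.68, 13.79 and 13.73 to 9.81, 9.84, 10.58 and 10.73 (-3.47 ± 0.24 SE), an 11.1-fold decrease. Some abundant matrix genes did not pass the test, among them Mgp, an inhibitor of calcification (-0.04), and Comp, a fibril-binding protein (-0.29), at untreated means of 13.73 and 13.88. The brightest probes of Prg4 (lubricin) and Dcn (decorin) were not called either, but 1 of 2 Prg4 probes was called lower and 2 of 5 Dcn probes higher.

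None of the 14 cartilage collagen genes, all measured, rose, and 7 fell (median -0.59). Col10a1, the collagen of hypertrophic cartilage, fell from 11.61, 11.86, 13.11 and 13.26 to 10.23, 10.18, 11.43 and 11.18 (-1.71 ± 0.13 SE, adjusted p = 9.32e-07). Col9a1 fell from 11.78 and 11.85 to 10.18 and 10.28 in batch 1 and from 13.71 and 13.61 to 12.94 and 12.78 in batch 2 (-1.19 ± 0.17 SE), and Col11a2 by 1.02. Col2a1, the main fibril collagen, was at 13.08 to 14.01 without treatment and 13.15 to 13.53 with IL-1α and did not pass the test on the brightest of its 3 probes (-0.20, adjusted p = 0.468), while 1 other probe was called lower.

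Genes of hypertrophy, mineralisation and bone matrix fell in 11 of 16 measured genes (68.8%) with 0 higher, of 21 listed (median -0.94). Without the batch 2 untreated replicate 2 array, 1 gene was called higher in this list and 1 in the non-collagenous matrix. Phex, a peptidase of mineralising cells, fell from 8.78, 8.98, 9.10 and 9.09 to 6.32, 6.41, 6.45 and 6.23 (-2.63 ± 0.16 SE). Panx3, a channel of prehypertrophic cells, fell from 11.82, 11.89, 12.15 and 12.44 to 9.01, 8.95, 10.37 and 10.12 (-2.46 ± 0.25 SE), and Ibsp, bone sialoprotein, from 12.73, 12.83, 12.09 and 12.41 to 9.78, 9.88, 10.29 and 10.31 (-2.45 ± 0.21 SE). Alpl, alkaline phosphatase, fell by 1.74.

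Among regulators of chondrocytes, 3 of 23 measured genes rose (13.0%) and 11 fell (47.8%), of 28 listed (median -0.35). Over all genes the shares were 15.4% and 15.1%. The count that rose was 1 when the batch 1 IL-1α replicate 2 array or the batch 2 untreated replicate 2 array was left out. Ihh, the hedgehog ligand of the growth plate, fell from 7.49, 7.50, 7.72 and 8.08 to 5.26, 5.03, 5.50 and 5.41 (-2.40 ± 0.14 SE, adjusted p = 1.19e-07). Its antagonist and target Hhip fell from 7.56 to 8.37 to 5.95 to 6.22 (-1.85 ± 0.16 SE), its target Ptch1 by 0.83 on the brighter of 2 probes and Pthlh, which restrains hypertrophy, by 0.97. Mef2c, a driver of hypertrophy, fell by 1.23 on the brightest of its 3 probes, all of them called lower. Sox9, the master factor of chondrocytes, fell by 0.44 (adjusted p = 0.012), while the brightest probes of Sox5 (-0.28) and Sox6 (-0.30) did not pass the test, with 2 of 5 and 1 of 3 probes called lower. Runx1 rose by 1.13.

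**Figure D4:**
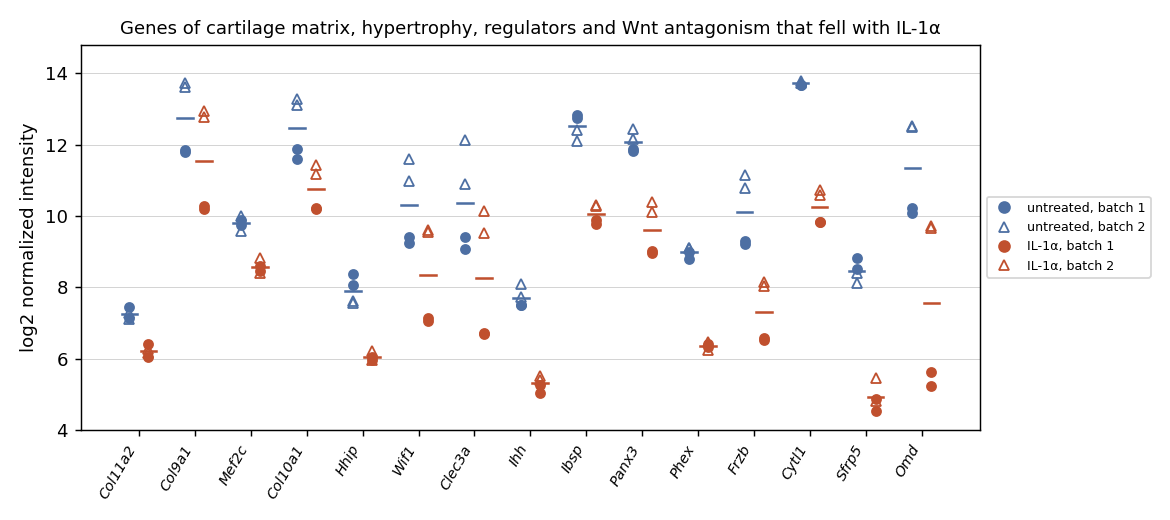
Log2 normalized intensity (vertical axis) on each of the 8 arrays for the named genes of the matrix, collagen, hypertrophy, regulator and Wnt lists that fell, ordered from the smallest fall to the largest, with circles for batch 1, triangles for batch 2 and short lines for means of 4 arrays. Levels of Col9a1, Wif1, Clec3a, Frzb and Omd differ between the batches more than within them, and IL-1α lies below untreated in each batch.

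Secreted brakes on Wnt signalling were among the steepest falls. Of 34 Wnt pathway genes listed, 25 passed the filter (median -0.23). Of these, 3 rose (12%, against 15.4% of all genes) and 10 fell (40%, against 15.1%). Sfrp5 fell from 8.50, 8.81, 8.40 and 8.12 to 4.52, 4.86, 4.81 and 5.45 (-3.55 ± 0.19 SE), where it was detected on 1 of 4 arrays. Frzb, a Wnt-binding protein of cartilage, fell from 9.30, 9.21, 10.78 and 11.14 to 6.51, 6.57, 8.15 and 8.02 (-2.80 ± 0.18 SE), and Wif1, another binding protein, from 9.23, 9.41, 10.98 and 11.60 to 7.07, 7.14, 9.62 and 9.54 (-1.96 ± 0.17 SE). Dkk3 fell by 0.92. Wnt4 fell by at least 1.22-fold, to not well above background, and Wnt9a rose by 0.86.

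Of 57 growth factors, binding proteins and antagonists listed, 46 passed the filter (median -0.06). Of these, 8 rose (17.4%, near the 15.4% of all genes) and 14 fell (30.4%, against 15.1%). Gdf10, a BMP-like factor, fell from 11.66 to 12.03 to 8.70 to 9.80 (-2.49 ± 0.17 SE). Igfbp5, which binds insulin-like growth factors, fell from 10.59, 10.52, 10.79 and 11.31 to 8.18, 8.36, 8.67 and 8.85 (-2.29 ± 0.20 SE), and Igf1 itself by 1.65 on the brightest of 3 probes, of which 2 were called. Grem1, a BMP antagonist of cartilage, fell by 1.96. The largest rise was Ltbp2, a matrix protein related to the latent TGF-β binding proteins, from 10.20 to 10.55 to 11.69 to 12.19 (1.51 ± 0.15 SE).

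Genes listed for building and sulfating glycosaminoglycan chains followed aggrecan downward in part. The list was not of enzymes only, and its largest rise was the hyaluronan receptor Cd44, already reported as an adhesion gene. Of 48 genes listed, 37 were measured, with 16 lower and 7 higher (median -0.24). Their shares were 43.2% lower and 18.9% higher, against 15.1% and 15.4% of all genes. The count of higher genes was 3 to 4 when the batch 1 array of replicate 1 of either treatment, or either batch 2 IL-1α array, was left out. Papss2, which makes the sulfate donor, fell from 12.65, 12.19, 11.85 and 12.55 to 10.92, 10.81, 11.25 and 11.38 (-1.22 ± 0.16 SE), and Chst11, a chondroitin sulfotransferase, from 8.90 to 9.64 to 8.05 to 8.40 (-1.10 ± 0.17 SE). Cemip, which takes part in hyaluronan breakdown, fell by 1.03 on the brighter of its 2 probes, the other not being called.

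Outside these lists, the largest fall was C1qtnf3, a secreted C1q-like protein of cartilage, from 10.80, 10.91, 10.39 and 10.67 to 5.75, 5.61, 5.96 and 5.62 (-4.96 ± 0.14 SE, 31.0-fold, adjusted p = 1.21e-10). Myoc, which encodes myocilin, fell from 10.98, 11.26, 10.48 and 9.89 to 7.14, 6.97, 6.56 and 6.22 (-3.93 ± 0.19 SE). Corin, a membrane serine protease, fell from 8.24 to 8.67 to not well above background on all 4 arrays, by at least 9.41-fold. Itih5l-ps, named as a pseudogene, fell by 4.60. Tnmd, which encodes tenomodulin, fell by 2.75, Ndp, the norrin ligand, by 3.00, and Il17d by 2.65. Ippk, an inositol phosphate kinase, fell from 11.06 to 11.19 to 7.97 to 8.34 (-2.97 ± 0.13 SE), Cyp3a13, a cytochrome P450, by 3.09, Cmtm5 by 3.37 and the unnamed locus LOC638935 by 3.45.

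Genes of the cell cycle fell more often than they rose. Of 45 listed, 38 passed the filter, 18 were lower and 1 was higher (median -0.49). The riser was Cdkn1a, which encodes the cell cycle inhibitor p21, from 10.38, 10.45, 11.27 and 11.07 to 12.67, 12.77, 12.51 and 12.52 (1.82 ± 0.23 SE). The helicase subunits Mcm6 and Mcm5 fell by 1.28 and 1.24, Ccnd1, which encodes cyclin D1, by 1.12 on the brightest of 5 probes, of which 3 were called, and Mki67 by 1.04. In 10 of the 38 genes the change differed between the batches, against 4.47% of all genes, and only 26 had the same sign in both. The count that fell was 13 to 19 with an array left out and 9 with scaling to one median.

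Of 40 chaperones and collagen-processing genes listed, 35 passed the filter (median -0.25). Of these, 4 rose (11.4%, against 15.4% of all genes) and 12 fell (34.3%, against 15.1%). The count that fell was 6 to 7 when either batch 1 array of replicate 2 or the batch 2 IL-1α replicate 2 array was left out. The steepest were Pcolce2 and Pcolce, enhancers of procollagen cleavage, with Pcolce2 falling from 10.56, 10.80, 12.60 and 12.44 to 8.14, 8.38, 10.49 and 10.40 (-2.25 ± 0.12 SE) and Pcolce by 2.07, and the crosslinking enzyme Loxl4 by 1.62. The transglutaminase Tgm2 rose by 1.17. Glycolysis and hypoxia genes, with 28 of 34 measured, had 2 higher and 10 lower (median -0.20), and 5 to 6 lower without any of 6 arrays in turn (both batch 1 untreated arrays, batch 1 IL-1α replicate 2, batch 2 untreated replicate 2 and both batch 2 IL-1α arrays). Aldoc, an aldolase, fell from 9.25 to 9.54 to 7.98 to 8.27 (-1.26 ± 0.12 SE) and Pfkfb3, which speeds glycolysis, rose by 0.83.

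Genes of the respiratory chain and of the cholesterol pathway had few calls above 2-fold. Of 40 respiratory chain genes listed, 36 passed the filter, 4 rose (2 without the batch 1 untreated replicate 2 array) and 3 fell (1 without the batch 1 IL-1α replicate 2 array), with a median of 0.05. Their shares of 11.1% higher and 8.33% lower lie below the 15.4% and 15.1% of all genes. Ndufa4 rose by 0.96. Of 29 cholesterol genes listed, 24 passed the filter, 3 rose and 6 fell (25% lower, against 15.1% of all genes, median -0.05), and 3 fell without either batch 1 IL-1α array or without batch 1 untreated replicate 2. The list also held desaturases that act on fatty acids and not on cholesterol, and of these Fads2 and Scd1 fell by 1.05 and 0.88. The 3 genes that rose were Msmo1, Srebf2 and Mvd, each by at most 0.67.

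Markers of cell types were read on the same arrays, as the log2 of the summed intensities of each list, which bright genes dominate. Of 10 chondrocyte markers, 8 were detected on all 8 arrays, Matn3 on none and Cnmd on 3 untreated arrays only. The sum of these markers lay at 15.93 to 16.18 without treatment and 15.11 to 15.53 with IL-1α. Of the 8 measured, 6 were lower. Sox9, Col9a1, Acan, Matn1 and Hapln1 among them were already reported above, so this is not a separate result. Markers of osteoblasts fell in 5 of 5 measured genes, with a sum of 13.36 to 13.62 against 11.52 to 12.22, and Dmp1 undetected on all 8 arrays. The measured osteoblast markers, Ibsp and Alpl among them, also stand in the list of hypertrophy, mineralisation and bone matrix genes above. The 2 results are therefore largely the same measurements and are not independent. Fibroblast markers fell in 7 of 7 (12.09 to 12.89 against 11.36 to 11.61), among them Col3a1 by 1.88 and Thy1 by 1.25. Endothelial markers fell in 4 of 8 (11.46 to 11.60 against 10.40 to 10.74), Pecam1 by 1.23. The endothelial markers Kdr (0.15), Vwf (-0.03), Tie1 (-0.35) and Tek (-0.30) were not called. Of 7 fat cell markers listed, 2 were measured and both fell (10.06 to 10.60 against 8.37 to 9.24). These were Adipoq and Cfd, the latter already reported with the complement genes. Retn, Fabp4, Plin1 and Lep were undetected on all 8 arrays, and Cidec did not pass the filter. The part of these cells in the changes above was not tested.

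Blood cell markers moved less evenly. Of 7 macrophage genes measured, Cd14 and Cd68 rose, by 2.73 and 0.97, and Mrc1, Adgre1 and Aif1 fell, by 1.41, 0.78 and 0.39, while Fcgr1, Itgam and Cd163 were undetected on all 8 arrays. The summed macrophage level was 12.12 to 12.34 without treatment and 12.57 to 13.16 with IL-1α. Mean levels went from 8.10 to 10.83 for Cd14, 10.66 to 11.63 for Cd68 and 11.19 to 11.09 for Laptm5, which was not called. The higher sum rests mainly on Cd14 and Cd68. Of 7 neutrophil genes measured, 0 were called in either direction, and the sums overlapped (11.62 to 13.02 against 12.51 to 12.91). For osteoclasts, 3 of 5 measured genes rose (12.20 to 13.08 against 13.15 to 13.29), with Calcr and Atp6v0d2 undetected. These were Mmp9, already counted among the metalloproteinases, Ctsk and Ocstamp, by 0.61, 0.55 and 0.69. Lymphocyte and erythroid genes had 0 calls among 2 and 4 measured, with the T cell genes Cd3d, Cd3e, Cd3g, Cd4 and Cd8a undetected on all 8 arrays. The mast cell gene Kit fell by 0.90 while 7 of the 9 listed mast cell genes were undetected on all 8 arrays, and 2 of 3 measured muscle genes fell (7.95 to 8.84 against 7.56 to 7.98).

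The response differed between the batches for 616 genes (4.47%), tested as the difference of differences, and 299 of these were also called for the response itself. Only 5 of the called genes had opposite signs in the batches, a low count that choosing called genes favours. Cxcl2 showed the widest gap among named genes, with a rise of 2.88 in batch 1 and 5.43 in batch 2 (adjusted p = 3.85e-05 for the difference). Ccl5 rose by 5.11 and 6.61 (adjusted p = 0.000631), C3 by 1.99 and 3.60 (adjusted p = 0.00111) and Saa2 by 5.66 and 7.14 (adjusted p = 0.00519). Csf3 and Calca rose more in batch 1, by 2.97 against 1.39 (adjusted p = 0.000578) and 5.49 against 4.00 (adjusted p = 0.0031), and Omd fell more in batch 1, by 4.73 against 2.82 (adjusted p = 0.000283). Since each group has 2 arrays in a batch, and the mouse line changed with the batch, line and batch cannot be told apart in these gaps. The count of probes behind this test, 878, was 1766 without the batch 2 untreated replicate 2 array, which had the highest number of detected probes, and 270 without the batch 2 IL-1α replicate 2 array.

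**Figure D5:**
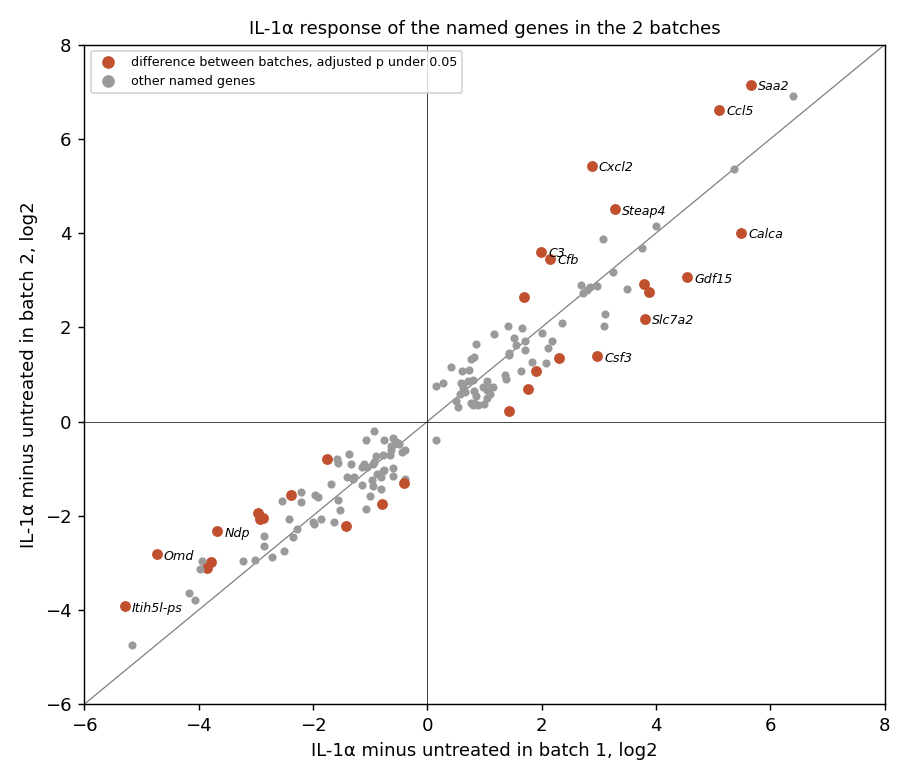
Difference between IL-1α and untreated, log2, in batch 1 (horizontal axis) and batch 2 (vertical axis) for the 159 named genes that passed the filter, with red points where the difference between batches had an adjusted p under 0.05 and a line where both are equal. The 30 red points keep the same sign in both batches, which the choice of named genes favours, and Cxcl2 lies farthest above the line.

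Set against retinoic acid directly, on arrays that share the fit, 2301 genes (16.7%) were higher with IL-1α and 2224 (16.2%) lower. All 5 marker genes were higher with IL-1α than with retinoic acid, Nos2 by 3.98 and Saa3 by 3.41. The C1q chains and Cxcl12 were lower, C1qc by 3.28 and Cxcl12 by 3.10. Matn1, Acan and Hapln1 were higher with IL-1α than with retinoic acid, by 3.19, 2.66 and 2.09, although all 3 fell against untreated cartilage. For Frzb (0.14, adjusted p = 0.617), Cytl1 (0.08, adjusted p = 0.839) and Irak2 (-0.10, adjusted p = 0.528) no difference between the treatments was called. No gene is set against its untreated change in retinoic acid here, since both treatments share the untreated arrays.

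Without the model, genes were also counted by whether all 4 IL-1α arrays lay below all 4 untreated arrays. In hypertrophy this held for 9 of 16 measured genes and in the non-collagenous matrix for 10 of 32, against 7.21% of all genes. In the NF-κB list, 13 of 24 measured genes had all 4 IL-1α arrays above, against 7.31% of all genes.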

How the data were processed

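For 12 arrays, the authors deposited linear intensity values per probe, without background subtraction or normalization. The deposited detection score, headed as a p-value, rises with intensity, so its complement to 1 served as detection p. All columns were mapped by title, and 0 were left without a sample. Background correction and quantile normalization used neqc (offset 16, log2 output) of limma 3.58.1 in R 4.3.3. A probe was kept if its detection p was under 0.05 on 4 or more of the 12 arrays. The model (lmFit, eBayes) had treatment and a 4-level factor of batch and replicate, and a further model with 1 mean per treatment and batch gave the difference between batches. P-values were adjusted by Benjamini-Hochberg. Symbols were updated through RefSeq synonyms (GRCm38.p6): of 34509, 16333 were current, 6482 synonyms and 11694 unmatched. Of 3341 genes with several kept probes, 36 had probes called in opposite directions.

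Where all arrays of a group were not well above background, the fold is a bound against, for each array, the higher of the lowest detected signal (4.86 to 5.48) and the probe's own. The number of arrays, 4 per treatment, limits precision. Named genes were the 5 markers, Adamts4, Adamts5, the 15 largest rises and 15 largest falls of the same sign in 4 pairs and detected on every array of the brighter group, and the 3 largest called rises and falls of each of 30 lists. Other genes were named after their values were seen. The groups, lists and markers were chosen with earlier results of these data known. The functions were tested on simulated data. Alternatives concerned background correction, normalization, offset, filter, replicate block, batch term, arrays used, eBayes trend, fold limit and each array left out.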

Additional observations from a re-analysis of the deposited data

Results flagged for a closer look

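The change with IL-1α differed between the batches in 30 of the 159 named genes that were measured, by the test of the difference itself (limma, adjusted p under 0.05), and in 0 of them had the change opposite signs. It was larger in batch 1 for 20 genes and in batch 2 for 10. Each value in brackets is the difference in batch 2 minus that in batch 1, on the log2 scale. Among genes that rose, the rise was larger in batch 2 for Saa2 (1.48), Ccl5 (1.5), Cxcl2 (2.55), Steap4 (1.22), C3 (1.61), Cfb (1.31) and Slc7a11 (0.96). It was larger in batch 1 for Calca (-1.48), Gdf15 (-1.48), Gdnf (-0.87), Il19 (-1.15), Slc7a2 (-1.62), Csf3 (-1.59), Cdkn1a (-0.96), Batf (-0.82), Tap1 (-1.06) and Slco2a1 (-1.20). Among genes that fell, the fall was larger in batch 1 for Tlr5 (0.96), Adamts3 (0.82), Ibsp (1.00), Panx3 (0.83), Gdf10 (0.86), Ndp (1.35), Cmtm5 (0.80), Cytl1 (0.74), Omd (1.91) and Itih5l-ps (1.37). It was larger in batch 2 for Plat (-0.90), Cxcl12 (-0.94) and C1qb (-0.80).

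In 3 of 320 groups of 4 arrays, 1 array stood apart from the other 3 by Dixon's ratio. These were Mcam at 7.58 on the untreated array of batch 2, replicate 2, Icam1 at 12.67 on the IL-1α array of batch 2, replicate 2, and LOC638935 at 5.60 on the IL-1α array of batch 2, replicate 1. For 4 arrays of one kind chance flags about 1 in 20 groups, but each group here mixes 2 batches. The count of flagged groups cannot be read against that rate.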

How the results depend on the processing

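The count of 5334 probes called between IL-1α and untreated (2767 higher, 2567 lower) became 3104 (1538 and 1566) with scaling to one median, 1327 (621 and 706) with treatment alone and 958 (417 and 541) with a fold change above 2. It was between 3781 and 5509 with each array left out in turn, with 1841 to 2884 higher and 1883 to 2625 lower. For IL-1α against retinoic acid, 5656 probes became 1984 with treatment alone and 1533 with a fold change above 2, and 4624 to 5824 with an array left out. For the difference between batches, 878 probes became 399 with detection on all 12 arrays, 463 with the 8 arrays only, 514 with a fold change above 2, and 270 to 1766 with an array left out. It was 314 without batch 1 IL-1α replicate 1, 301 without batch 1 IL-1α replicate 2, 369 without batch 1 untreated replicate 1, 270 without batch 2 IL-1α replicate 2 and 1766 without batch 2 untreated replicate 2. Without the replicate block, keeping batch, 5702 probes were called. Same-numbered arrays deviated together little within a batch (correlation 0.0027 in batch 1 and 0.182 in batch 2), so the numbers are not shown to pair the arrays, and the factor stands in the model because the study's methods use it. Over 159 named genes and 20 alternatives, 2948 results kept direction and side of the threshold, 177 kept the direction but lost the call and 1, Saa3 with the 8 arrays only, gained it. Adamts4, not called, ranged from -0.25 to 0.0013 with an array left out and changed sign without batch 2 IL-1α replicate 2. Treatment alone and the fold limit removed 52 calls each, and 140 genes kept their call in every other alternative or gained it. With treatment alone, 12 NF-κB genes were higher, and 8 non-collagenous matrix genes, 7 hypertrophy genes, 7 cell cycle genes and 2 glycosaminoglycan genes were lower. The causes were not tested. Signal near background and the ceiling limit the sizes of dim and bright genes.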
